A study of Mus musculus with 38 samples.

Results

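The genes examined here were 9 transporters that move paclitaxel or platinum drugs across membranes, chosen by name out of the 55487 genes of the deposited tables, namely the drug exporters Abcb1a, Abcb1b, Abcc1, Abcc2, Abcc3 and Abcg2, and the copper transporters Slc31a1, Atp7a and Atp7b. They were followed in omental tumors of 2 mouse models of high-grade serous ovarian cancer (HGSOC) and in the cell lines from which the tumors grew. The 60577 cells were injected into the peritoneal cavity of FVB mice and the HGS2 cells into that of C57BL/6J mice, so that model and host strain cannot be told apart. All hosts were female, 8 to 9 weeks old when injected, and carried their own immune and stromal cells. Treated mice were given carboplatin (20 mg/kg) with paclitaxel (10 mg/kg) by intraperitoneal injection, 3 times at weekly intervals, and controls were given vehicle. Dosing started 21 days after injection for 60577 and 49 days after injection for HGS2. Tumors were taken 1 day (TP1), 7 days (TP2) or 21 days (TP3) after the last dose. For 60577 there were 3 control and 3 treated tumors at TP1, 3 control and 4 treated at TP2, and 4 treated at TP3. For HGS2 there were 3 control and 3 treated tumors at TP1, 4 control and 3 treated at TP2, and 4 treated at TP3, of which replicate 1 is not in the study's own tables and was kept out of the fits. There were no TP3 controls, so TP3 treated tumors were set against TP2 controls, and treatment and time cannot be told apart there. Each cell line was sequenced in monoculture, without drug, in 2 replicates. The labels give the host strain but no tumor genotype.

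Paclitaxel leaves cells mainly through P-glycoprotein, an ATP-driven pump of the plasma membrane. Human cells have a single gene for it, ABCB1, whereas mice carry Abcb1a and Abcb1b side by side. Abcc1, Abcc2 and Abcc3 encode multidrug resistance-associated proteins, which export conjugates with glutathione or glucuronic acid, and Abcc2 also exports taxanes. Abcg2 encodes the breast cancer resistance protein, a pump with a wide range of substrates. Platinum drugs share routes with copper. Slc31a1 encodes the copper importer CTR1, which has been implicated in platinum uptake, and Atp7a and Atp7b encode copper pumps that load cuproenzymes in the secretory pathway and carry copper, and with it platinum, out of the cell.

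Expression was measured as RNA, not as protein or transport. Each library held 19456375 to 31411938 expected counts in 60577 tumors, 17839635 to 49299442 in HGS2 tumors and 31633121 to 42461995 in cell lines, and levels are given as CPM, the count of a gene scaled to a common library total. The tumors were bulk tissue, so fewer cells of a type and less RNA per cell cannot be told apart. The 9 epithelial marker genes, of which 7 were tested in tumors, summed to 1588 to 2908 CPM in 60577 controls against 206 to 636 CPM in 60577 treated tumors, with no listed marker at 0 throughout a group. In HGS2 the sum ran from 21.3 to 796 CPM in controls, and the lowest value was that of TP1 control replicate 1. Pancreas acinar markers summed to 59758 CPM in HGS2 TP1 control replicate 3, 114803 CPM in TP2 control replicate 2 and 58411 CPM in TP3 treated replicate 2, against at most 1377 CPM in the other HGS2 tumors. The small cytoplasmic RNA 7SL took 1.93% to 26.5% of the counts of a 60577 tumor and 3.07% to 20.9% of those of an HGS2 tumor. In 60577 its share was above 15% in TP1 treated replicate 3 and TP2 treated replicates 3 and 4. The transporter calls in 60577 are given with and without these tumors.

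The tumors held RNA of all 9 transporters, at very unequal levels. Levels were compared between genes as CPM per kilobase of the longest protein-coding transcript of each gene. The order depends on that length. The joined exons of Abcc1 span 15092 bases against 6792 for its transcript, and those of Atp7a 8734 against 4900. Across the 33 tumors, Abcc1 had the highest median at 18.04 CPM per kb, followed by Atp7a at 15.02 and Abcc3 at 9.17. Slc31a1 followed with 8.21, Abcb1b with 6.75, Abcg2 with 3.22 and Abcb1a with 2.71 CPM per kb. Atp7b stood at 0.0744 and Abcc2 at 0.0151 CPM per kb, and neither reached 1 CPM in enough tumors to be tested. The ranges of neighbours in this order overlapped in every case. Atp7a exceeded Abcc3 in all 33 tumors and Abcb1b exceeded Abcg2 in all 33, while Abcc3 exceeded Slc31a1 in 19 and Abcg2 exceeded Abcb1a in 19. In controls, Atp7a (17.9 CPM per kb) ranked above Abcc1 (15.8) in 60577, and Abcc1 (19.7) ranked above Atp7a (14.96) in HGS2.

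The cell lines, shown beside the tumors without a test because their tables were separate, had the same gene at the top by this measure. Other genes stood below it. Per kilobase of the longest transcript, Abcc1 had the highest median in both lines, at 17.9 CPM per kb in 60577 and 28.6 in HGS2. With the joined exons as length its place could differ, since those of Slc31a1 span 4280 bases against 4154 for its transcript. Abcg2 followed Abcc1 in the 60577 line with 16.3 CPM per kb, and stood below Slc31a1 (22.7) and Abcb1b (14.3) in the HGS2 line with 14.2. The range of Abcg2 was 73.5 to 98.4 CPM over the 4 cell line libraries and 11.8 to 27.3 CPM over the 33 tumors. Abcb1b was at 59.5 to 75.4 CPM in the lines and 17.4 to 79.7 CPM in the tumors, where 1 tumor lay above the lines. The lines held almost no macrophage RNA, with a marker sum of 1.16 to 4.67 CPM and Adgre1, Cd163 and Timd4 at 0. Endothelial markers summed to 24.9 to 53.4 CPM there, with Cdh5 and Cldn5 at 0. All 9 epithelial markers were detected in the 60577 line, with a sum of 4347 to 4630 CPM, and 8 in the HGS2 line, with 824 to 1397 CPM and Cldn4 at 0.

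**Figure D1:**
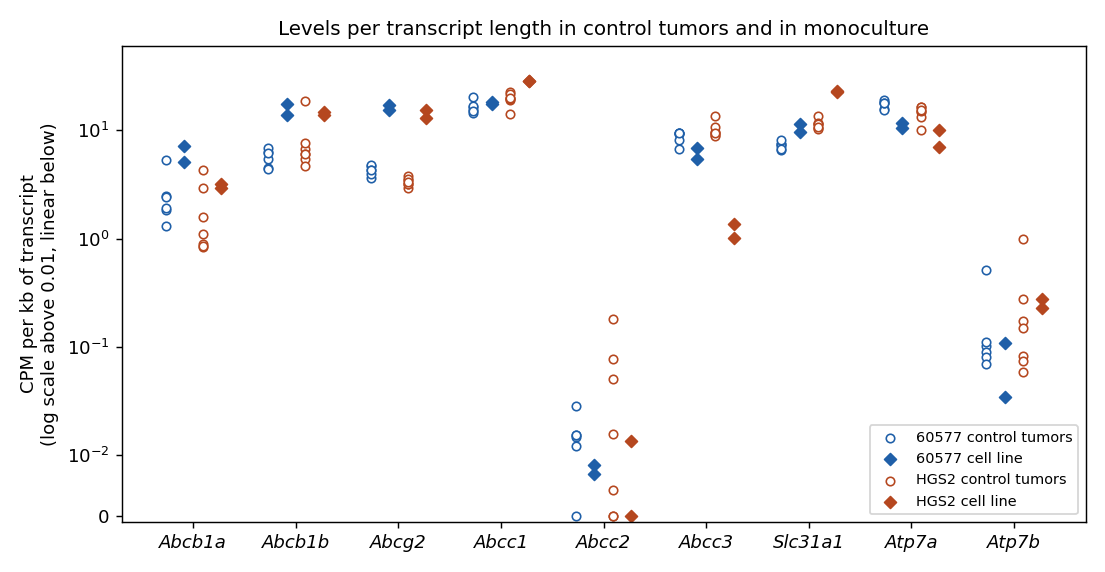
Level of the 9 transporters in each control tumor and cell line library, in CPM per kilobase of the longest protein-coding transcript. The axis is symmetric log and linear near 0. Abcc1 and Atp7a sit at the top of the control tumors, and Atp7b and Abcc2 sit near 0. The medians of Abcc1 and Atp7a are 15.8 and 17.9 CPM per kb in 60577 controls, and 19.7 and 14.96 in HGS2 controls.

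The sequences upstream of the transcription start are shown for the gene pair that encodes P-glycoprotein and for the 2 copper transporters that were tested. Abcc1 and Abcc3 had no entry, and those of Abcg2, Abcc2 and Atp7b are not shown. Each stretch shown is the 250 bases before the start of the RefSeq entry, from the strand of the gene, in GRCm38.p6. Capitals mark matches on either strand to any of 5 motifs, which are CCAAT (known for binding NF-Y), GGGCGG (Sp1), CACGTG (E-box factors), TGANTCA (AP-1) and TGACNNNGC (NRF2). No 2 matches overlapped in these windows. The Abcb1a stretch lies at chr5:8566841-8567090, well upstream of the Abcb1a start of the annotation used for the counts, and the other 3 lie at chr5:8797897-8798146, chr4:62360451-62360700 and chrX:106026974-106027223, all on the plus strand.
Abcb1a: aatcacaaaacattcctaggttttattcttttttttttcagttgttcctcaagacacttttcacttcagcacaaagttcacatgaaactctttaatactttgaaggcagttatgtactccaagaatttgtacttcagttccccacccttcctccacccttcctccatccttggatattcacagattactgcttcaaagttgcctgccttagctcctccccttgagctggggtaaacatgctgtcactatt
Abcb1b: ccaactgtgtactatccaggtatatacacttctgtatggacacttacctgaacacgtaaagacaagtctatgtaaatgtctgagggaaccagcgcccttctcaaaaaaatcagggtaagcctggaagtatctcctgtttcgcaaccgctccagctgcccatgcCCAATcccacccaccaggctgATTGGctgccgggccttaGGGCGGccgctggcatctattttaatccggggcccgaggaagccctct
Slc31a1: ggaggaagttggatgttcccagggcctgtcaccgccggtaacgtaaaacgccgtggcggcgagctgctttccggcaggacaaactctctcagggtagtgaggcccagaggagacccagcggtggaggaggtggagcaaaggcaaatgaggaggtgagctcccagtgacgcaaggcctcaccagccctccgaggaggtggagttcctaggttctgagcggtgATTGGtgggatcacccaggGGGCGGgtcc
Atp7a: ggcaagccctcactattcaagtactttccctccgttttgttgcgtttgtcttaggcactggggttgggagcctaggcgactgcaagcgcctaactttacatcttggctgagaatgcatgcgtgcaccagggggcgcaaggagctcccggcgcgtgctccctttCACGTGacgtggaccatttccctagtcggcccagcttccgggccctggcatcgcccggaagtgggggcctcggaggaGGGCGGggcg
The Abcb1a stretch held none of these motifs and had a GC content of 40.4%. The Abcb1b stretch held 2 CCAAT matches and 1 GGGCGG match at a GC content of 52.8%. Slc31a1 held 1 match to each of these, and Atp7a held 1 GGGCGG and 1 CACGTG match, at 62.8% and 62.4% GC. Of the 32817 promoter windows in the same table, the NF-Y motif was in 33.8%, that of Sp1 in 32.7%, that of E-box factors in 6.02%, that of AP-1 in 6.75% and that of NRF2 in 10.2%. These letters describe the windows and say nothing of whether a factor binds there.

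The first question was which transporters differed after chemotherapy in 60577 tumors. The day after the last dose, both P-glycoprotein genes, Abcc1 and Abcc3 were higher in treated tumors and Abcg2 was lower. A week after it, the higher levels of the exporters were no longer called, and Abcc3, Abcg2, Slc31a1 and Atp7a were lower than in controls. Of the 7 transporters that were tested, 5 passed at TP1 (4 higher and 1 lower), 4 at TP2 (all lower) and 2 at TP3, set against the controls of TP2 (both lower). A gene passed when its adjusted p of the edgeR quasi-likelihood test was below 0.05. By the same rule, 33.3% of the 16241 genes tested passed at TP1, 58.4% at TP2 and 51.4% at TP3, so that 5, 4 and 2 of 7 are to be read against a genome in which a large part of all genes changed. The median log2 fold change of the 7 genes was 0.72 at TP1 against -0.0021 for all genes, -0.42 at TP2 against 0.0312, and -0.21 at TP3 against -4e-04. Both tests after TP1 use the TP2 controls.

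**Figure D2:**
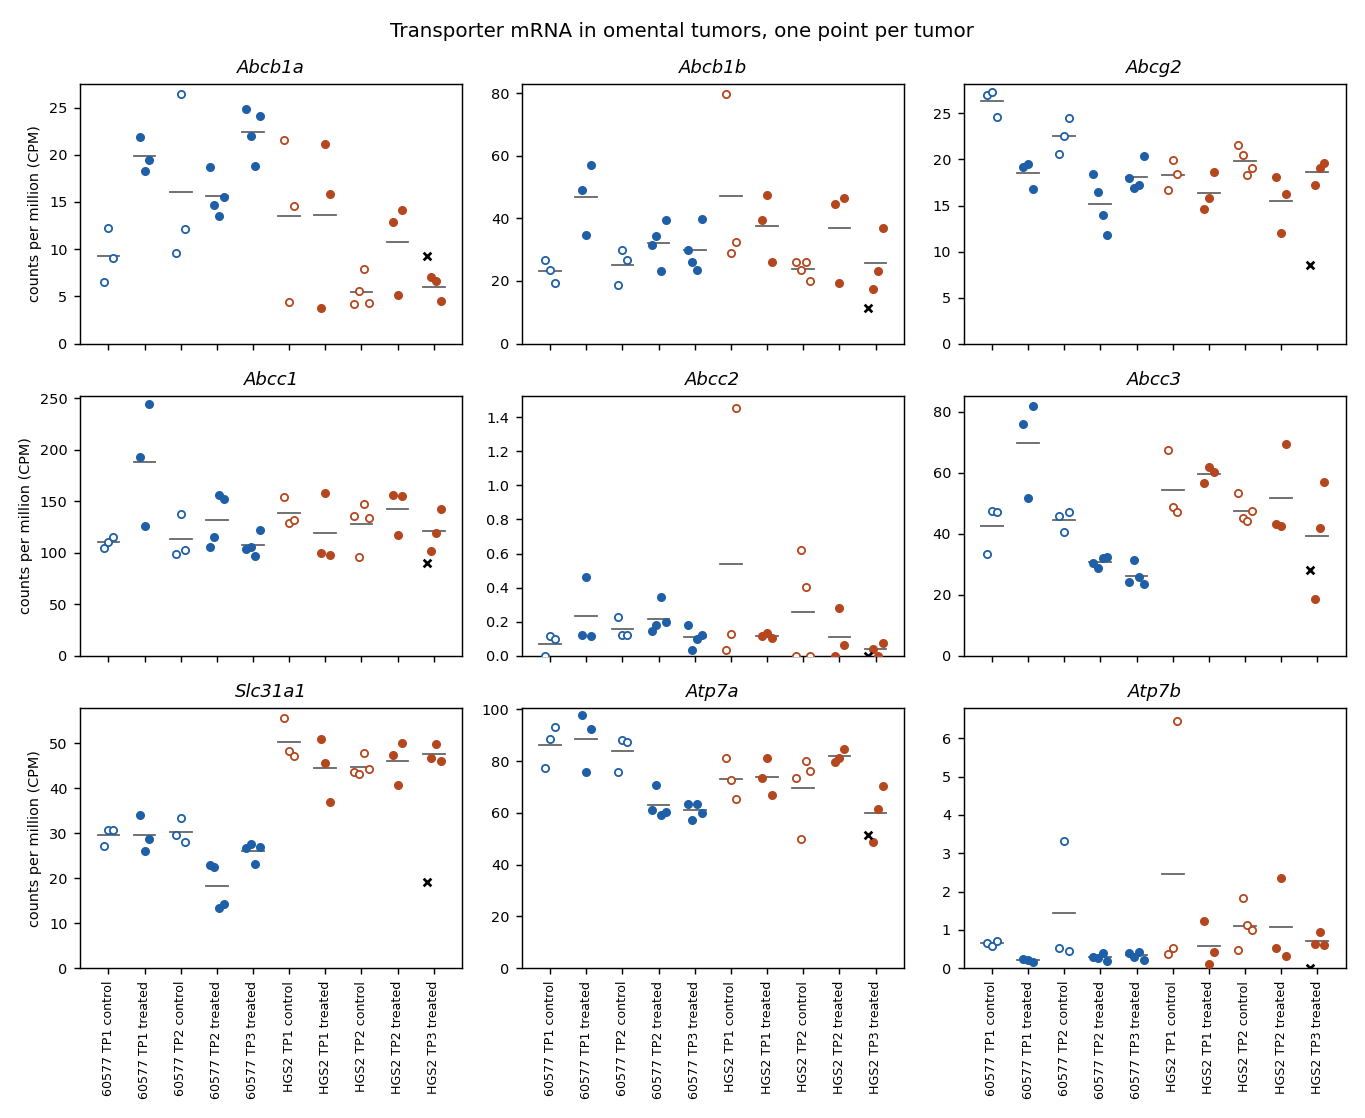
CPM of each transporter in every tumor by group, with open symbols for controls, filled symbols for treated tumors, blue for 60577, orange for HGS2, a grey line at the mean and a cross for HGS2 TP3 treated replicate 1. Abcb1b in 60577 at TP1 spans 19.4 to 26.9 CPM in controls and 34.6 to 57.0 CPM in treated tumors, without overlap.

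Abcb1a (ENSMUSG00000040584, chr5:8660077-8748575, plus strand, GRCm38) is the P-glycoprotein gene of brain capillaries and gut. Its level in 60577 TP1 controls was 6.49, 12.3 and 9.11 CPM, and in TP1 treated tumors 21.9, 18.3 and 19.4 CPM. The groups did not overlap, and Abcb1a was higher by 1.11 ± 0.31 on the log2 scale (SE, adjusted p = 0.0123, edgeR). It also passed without the tumors above 15% 7SL (log2 1.16, adjusted p = 0.0321), but not without TP1 control replicate 1, the lowest tumor (log2 0.90, adjusted p = 0.0640), or with both models fitted together (log2 1.10, adjusted p = 0.125, edgeR). At TP2 the controls read 9.60, 26.4 and 12.1 CPM and the treated tumors 18.7, 14.7, 13.5 and 15.5 CPM. These groups overlapped, with a log2 difference of -0.06 ± 0.28 and an adjusted p of 0.875 (edgeR). TP2 control replicate 2, which had 26.4 CPM, also had the lowest endothelial marker sum of the 60577 tumors, 40.3 CPM. At TP3 the treated tumors held 24.8, 21.9, 18.8 and 24.1 CPM, all above the TP2 treated tumors, but neither the difference from TP2 treated tumors (log2 0.54, adjusted p = 0.115) nor that from TP2 controls (log2 0.48 ± 0.28, adjusted p = 0.168, edgeR) passed. Between TP1 and TP2 controls Abcb1a differed by a log2 value of 0.80, with an adjusted p of 0.464 (edgeR).

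Abcb1b (ENSMUSG00000028970, chr5:8798147-8866315, plus strand) is the second P-glycoprotein gene, best known from adrenal gland and pregnant uterus. In 60577 TP1 controls it read 26.9, 23.6 and 19.4 CPM, and in TP1 treated tumors 49.2, 34.6 and 57.0 CPM. It was higher without overlap, by 1.02 ± 0.25 on the log2 scale (SE, adjusted p = 0.00542, edgeR). The highest treated tumor was the one with 15.4% 7SL, and without the tumors above 15% 7SL the value was 0.88 (adjusted p = 0.0185, edgeR). At TP2 the range was 18.8 to 29.8 CPM in controls and 23.1 to 39.4 CPM in treated tumors, and at TP3 it was 23.5 to 39.8 CPM. The log2 differences from controls were 0.34 ± 0.23 at TP2 (adjusted p = 0.216) and 0.25 at TP3 (adjusted p = 0.378, edgeR), and neither passed.

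Since the pair arose by duplication and its coding sequences are much alike, some reads fit both genes and RSEM divides them, so that the level of each is uncertain. The share of Abcb1b in the summed expected counts of the pair was 67.1% ± 8.77 in 60577 controls (SD, n = 6) and 80.1% ± 6.11 in HGS2 controls (SD, n = 7). The difference was 13.1 percentage points, with p = 0.0117 in an exact two-sided permutation test of the tumors. In the cell lines the share was 67.6% and 70.1% for 60577, and 78.8% and 81.3% for HGS2, so that the lines stood in the same order as the control tumors. Line and tumors of a model share the mouse strain, and all reads were mapped to the same genome. The lines are thus no independent check of how the reads were divided. The 4 TP3 treated 60577 tumors had shares of 54.3% to 62.3%. Left-out single tumors gave differences between 10.3 and 15.8 points, and without the tumors rich in pancreas RNA it was 15.1 points.

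**Figure D3:**
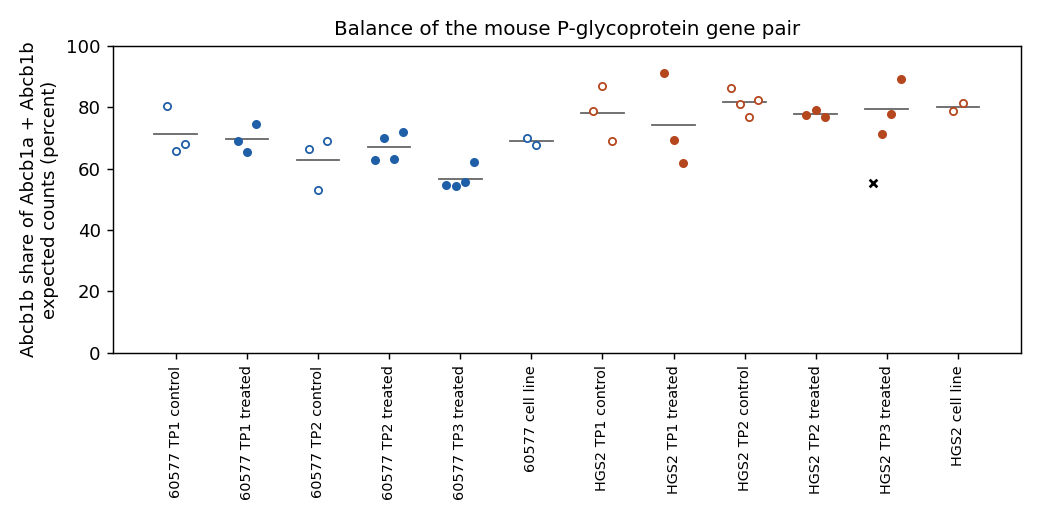
Share of Abcb1b in the summed Abcb1a and Abcb1b expected counts, in percent, for each tumor and cell line library by group, with open symbols for untreated libraries, filled symbols for treated tumors, a grey line at the mean and a cross for HGS2 TP3 treated replicate 1. HGS2 controls average 80.1% and 60577 controls 67.1%, and the TP3 treated 60577 tumors lie at 54.3% to 62.3%.

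Among the multidrug resistance-associated proteins, Abcc1 (ENSMUSG00000023088, chr16:14361558-14475737, plus strand) exports glutathione conjugates in many tissues. It read 105, 111 and 115 CPM in 60577 TP1 controls, and 193, 126 and 244 CPM in TP1 treated tumors. Its log2 difference was 0.78 ± 0.21 (SE, adjusted p = 0.0111, edgeR), and replicate 3, the highest, was also the tumor with 15.4% 7SL. Without that tumor the call was lost (log2 0.54, adjusted p = 0.0689), while Abcc1 passed in the fit without all 3 tumors above 15% 7SL (log2 0.57, adjusted p = 0.0321). At TP2 controls read 98.3, 138 and 103 CPM and treated tumors 106, 115, 156 and 152 CPM, with overlap in part (log2 0.21 ± 0.20, adjusted p = 0.368, edgeR). Treated replicates 3 and 4, the tumors with 19.4% and 26.5% 7SL, lay above all controls. Without the tumors above 15% 7SL the log2 difference was -0.0086 (adjusted p = 0.976, edgeR). TP3 treated tumors held 96.5 to 123 CPM.

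Abcc3 (ENSMUSG00000020865, chr11:94343295-94392997, minus strand), an exporter of glucuronides and bile salts, was the transporter whose direction turned between time points. In 60577 TP1 controls it read 33.3, 47.4 and 47.2 CPM, and in TP1 treated tumors 75.9, 51.9 and 82.0 CPM (log2 0.72 ± 0.17, SE, adjusted p = 0.00493, edgeR). At TP2 controls held 45.9, 40.5 and 47.2 CPM against 30.3, 28.8, 32.2 and 32.4 CPM in treated tumors (log2 -0.54 ± 0.16, adjusted p = 0.00988, edgeR). At TP3 the treated tumors held 24.3, 31.5, 25.7 and 23.4 CPM, below all controls of either time point (log2 -0.75 ± 0.16 against TP2 controls, adjusted p = 0.00107, edgeR). None of these groups overlapped with its controls. Without the tumors above 15% 7SL, which include the highest at TP1, Abcc3 passed at TP1 (log2 0.62, adjusted p = 0.0197), TP2 (log2 -0.56, adjusted p = 0.0277) and TP3 (log2 -0.72, adjusted p = 0.00161, edgeR). With both models fitted together the TP1 call was lost (log2 0.71, adjusted p = 0.0526). The TP2 call was kept in 16 of 17 alternatives, over which the adjusted p reached 0.0704. Within treated tumors Abcc3 fell by 1.19 on the log2 scale from TP1 to TP2 (SE 0.16, adjusted p = 0.00200, edgeR).

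Abcc2 (ENSMUSG00000025194, chr19:43782192-43840740, plus strand), the canalicular exporter of liver, was not tested. It stayed between 0 and 0.460 CPM in 60577 tumors and reached 1.45 CPM in a single HGS2 tumor, TP1 control replicate 3. The same tumor had 59758 CPM of pancreas acinar markers and the highest hepatocyte marker sum of the HGS2 tumors, 50.7 CPM. The part of tissue of these kinds in the value was not tested.

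Abcg2 (ENSMUSG00000029802, chr6:58584523-58695676, plus strand) was the exporter that was lower in treated 60577 tumors at both TP1 and TP2. It read 27.0, 27.3 and 24.6 CPM in TP1 controls and 19.2, 19.5 and 16.8 CPM in TP1 treated tumors, a log2 difference of -0.50 ± 0.14 (SE, adjusted p = 0.0140, edgeR). At TP2 it read 20.6, 22.5 and 24.5 CPM in controls and 18.4, 16.5, 14.0 and 11.8 CPM in treated tumors (log2 -0.58 ± 0.13, adjusted p = 0.00189, edgeR). The groups did not overlap at either time. TP3 treated tumors, at 16.9 to 20.4 CPM, lay just below the TP2 controls (log2 -0.31 ± 0.13, adjusted p = 0.0645, edgeR). With the 7SL share as a covariate the log2 difference was -0.33 at TP1 (adjusted p = 0.0946) and -0.36 at TP2 (adjusted p = 0.0615), both no longer past the threshold. Without the tumors above 15% 7SL Abcg2 passed at TP1 (log2 -0.40, adjusted p = 0.0180), at TP2 with a smaller difference (log2 -0.34, adjusted p = 0.0295) and at TP3 (log2 -0.27, adjusted p = 0.0264, edgeR). Without TP1 treated replicate 3 alone the TP1 value was -0.44 (adjusted p = 0.0600, edgeR).

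Slc31a1 (ENSMUSG00000066150, chr4:62360727-62391769, plus strand), which encodes CTR1, showed no difference beyond the spread of replicates at TP1. Controls read 27.3, 30.9 and 30.7 CPM and treated tumors 34.1, 26.2 and 28.7 CPM (log2 0.01 ± 0.19, adjusted p = 0.977, edgeR). At TP2 controls held 29.5, 33.4 and 28.0 CPM and treated tumors 23.1, 22.6, 13.4 and 14.2 CPM, a log2 difference of -0.74 ± 0.17 (SE, adjusted p = 0.00249, edgeR). All treated tumors lay below all controls, and the lowest 2, replicates 3 and 4, were the tumors with 19.4% and 26.5% 7SL. Without the tumors above 15% 7SL the log2 difference was -0.38 (adjusted p = 0.0330), and with the 7SL share as a covariate it was -0.48 (adjusted p = 0.0615, edgeR). TP3 treated tumors read 26.7, 27.7, 23.1 and 27.0 CPM, above all TP2 treated tumors and below all TP2 controls. The rise from TP2 to TP3 treated tumors passed (log2 0.53 ± 0.16, adjusted p = 0.0243, edgeR), but not without the tumors above 15% 7SL (log2 0.21, adjusted p = 0.336) or with the covariate (log2 0.10, adjusted p = 0.895).

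Atp7a (ENSMUSG00000033792, chrX:106027276-106124926, plus strand), the copper pump of most tissues outside the liver, was not called at TP1 either. Controls read 77.2, 88.7 and 93.3 CPM and treated tumors 97.9, 75.7 and 92.4 CPM (log2 0.05 ± 0.11, adjusted p = 0.792, edgeR). At TP2 controls held 75.9, 88.3 and 87.2 CPM against 61.1, 70.8, 59.2 and 60.5 CPM in treated tumors (log2 -0.42 ± 0.11, SE, adjusted p = 0.00324, edgeR). At TP3 treated tumors held 63.4, 57.3, 63.5 and 59.8 CPM (log2 -0.45 ± 0.10 against TP2 controls, adjusted p = 0.00225, edgeR). Neither treated group overlapped with the TP2 controls. The TP2 call was lost with the 7SL covariate (log2 -0.35, adjusted p = 0.0570) and without the tumors above 15% 7SL (log2 -0.32, adjusted p = 0.0542). In TP3 treated tumors, where 7SL took 1.93% to 5.89% of counts, Atp7a passed under both of these alternatives (log2 -0.49, adjusted p = 0.00275, and -0.42, adjusted p = 0.00428, edgeR).

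**Figure D4:**
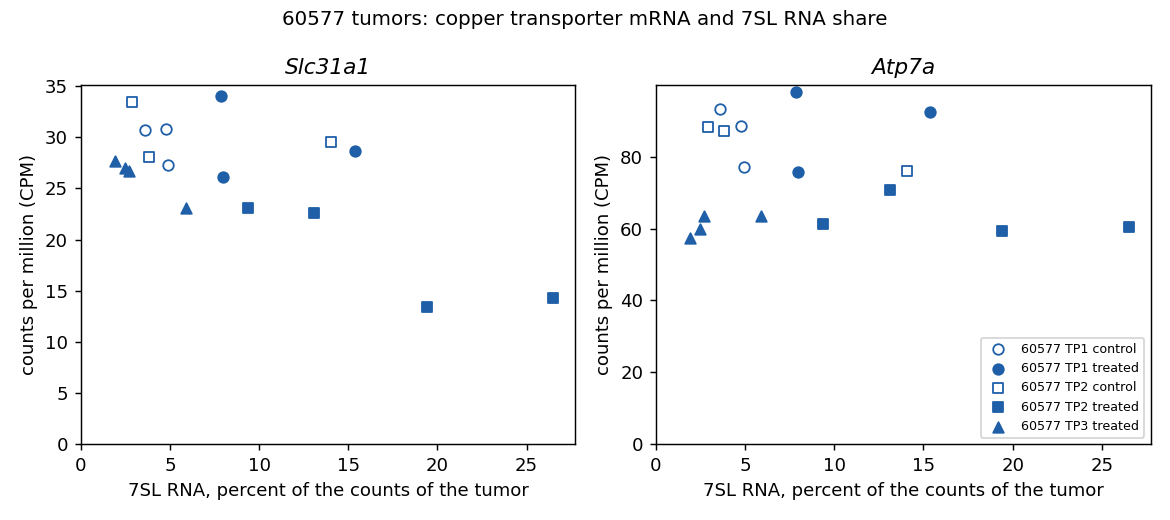
CPM of Slc31a1 and Atp7a against the share of 7SL RNA in the counts, in percent, for each of the 17 tumors of 60577 by group. The TP2 treated tumors with 19.4% and 26.5% 7SL have the lowest Slc31a1, 13.4 and 14.2 CPM, and the TP3 treated tumors combine low Atp7a, 57.3 to 63.5 CPM, with a 7SL share under 6%.

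Atp7b (ENSMUSG00000006567, chr8:21992785-22060305, minus strand), the copper pump of liver that is mutated in Wilson disease, was too low to be tested in tumors. In 60577 it read 0.659, 0.591 and 0.718 CPM in TP1 controls and 0.2504, 0.212 and 0.155 CPM in TP1 treated tumors. TP2 controls ranged from 0.453 to 3.33 CPM, TP2 treated tumors from 0.201 to 0.394 CPM and TP3 treated tumors from 0.211 to 0.420 CPM. The treated tumors lay below the controls at each time, without a test. Its highest value, 6.46 CPM, was in HGS2 TP1 control replicate 3, the tumor with the highest Abcc2.

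Within treated 60577 tumors, 3 of the 7 transporters fell from TP1 to TP2, and 19.3% of all genes passed in that comparison. These were Abcc3, Slc31a1 (log2 -0.70 ± 0.17, adjusted p = 0.0165) and Atp7a (log2 -0.51 ± 0.10, adjusted p = 0.00799, edgeR). Without the tumors above 15% 7SL, which leaves 2 treated tumors at each time, none of them passed, with a log2 value of -1.12 ± 0.20 for Abcc3 (adjusted p = 0.0798), -0.41 ± 0.14 for Slc31a1 (adjusted p = 0.190) and -0.41 ± 0.14 for Atp7a (adjusted p = 0.174, edgeR). Abcc3 thus kept nearly the size of its fall. Abcb1b (log2 -0.56, adjusted p = 0.0883) and Abcc1 (log2 -0.52, adjusted p = 0.0731) did not pass. From TP2 to TP3 only Slc31a1 of the 7 passed, against 35% of all genes. Between the TP1 and TP2 controls of 60577 no transporter passed, and 0% of genes did. In that comparison edgeR and limma-voom called 0 genes, 1501 had an unadjusted p below 0.05 and DESeq2 called 107, and of the transporters only Abcb1a had an unadjusted p below 0.05.

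The cell makeup of the 60577 tumors moved with these values. At TP1, 6 of 7 tested epithelial, 5 of 5 mesothelial and 4 of 4 dividing cell markers were lower. Higher were 5 of 7 adipocyte, 6 of 7 fibroblast and 4 of 4 tested neutrophil markers. The same held for 2 of 5 tested T and NK cell markers and 1 of 6 macrophage markers. None of 8 endothelial and none of 4 B cell markers passed. Fibroblast markers summed to 5751 to 10002 CPM in TP1 controls and 17402 to 27343 CPM in TP1 treated tumors, and macrophage markers to 300.2 to 495 CPM and 597 to 709 CPM. At TP2, 4 of 7 fibroblast, 6 of 7 adipocyte, 4 of 4 B cell and 5 of 5 tested T and NK cell markers were higher. So were 1 of 8 endothelial and 1 of 6 macrophage markers. Lower at TP2 were 7 of 7 epithelial, 3 of 4 neutrophil and 4 of 5 mesothelial markers. The 7 pancreas acinar and 4 dividing cell markers were all lower too. Neutrophil markers summed to 9.13 to 21.4 CPM in TP1 controls, 31.9 to 139 CPM in TP1 treated tumors, 17.3 to 44.3 CPM in TP2 controls and 16.2 to 21.8 CPM in TP2 treated tumors, and 4 of 4 were lower in TP2 than in TP1 treated tumors. Fibroblast markers summed to 6050 to 9531 CPM in TP2 controls and 7969 to 11987 CPM in TP2 treated tumors. At TP3, 7 of 7 adipocyte, 5 of 6 macrophage, 4 of 8 endothelial and 4 of 7 fibroblast markers were higher. So were 4 of 4 B cell and 5 of 5 tested T and NK cell markers. Lower at TP3 were 7 of 7 epithelial, 4 of 5 mesothelial, 3 of 4 neutrophil and 4 of 4 dividing cell markers. Of the markers of these types, Ly6g (neutrophil) was at 0 throughout the TP2 treated tumors and Prss2 (pancreas) throughout the TP1 controls. The part of these cells in the transporter values was not tested.

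**Figure D5:**
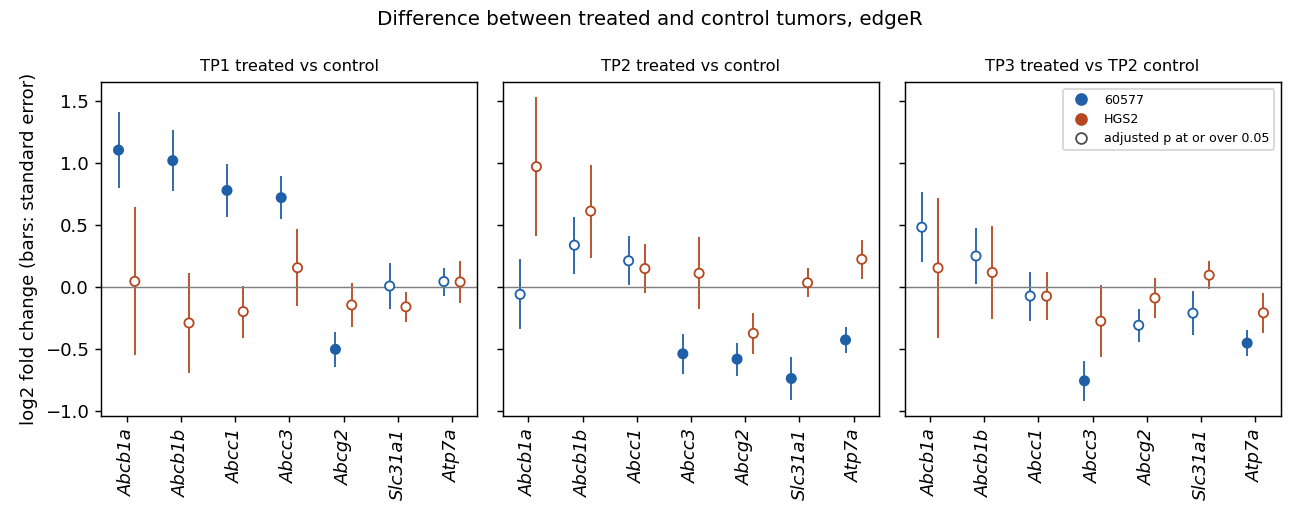
Log2 fold change of each tested transporter with its standard error in the treatment comparisons of both models, with filled symbols for an adjusted p below 0.05 in edgeR. In 60577 Abcb1a and Abcb1b are higher by 1.11 and 1.02 at TP1, Slc31a1 is lower by 0.74 at TP2, and no HGS2 symbol is filled.

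The same question was asked of HGS2, in which none of the 7 transporters passed in any of the 3 treatment comparisons. The background there was also 0%: edgeR and limma-voom called 0 of 16241 genes at TP1, TP2 and TP3. An unadjusted p below 0.05 was found for 413, 1233 and 406 genes, and DESeq2 called 1, 9 and 5 genes. Of the transporters, only Abcg2 at TP2 had an unadjusted p below 0.05. The median log2 fold change of the 7 transporters was -0.14 at TP1, 0.15 at TP2 and -0.07 at TP3.

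Abcb1a and Abcb1b varied widely among HGS2 replicates. Abcb1a read 21.5, 4.44 and 14.6 CPM in TP1 controls and 3.81, 21.1 and 15.9 CPM in TP1 treated tumors, so that both groups spanned the same range (log2 0.05 ± 0.60, adjusted p = 0.999, edgeR). At TP2 it read 4.17, 5.54, 7.90 and 4.24 CPM in controls and 12.9, 5.17 and 14.1 CPM in treated tumors (log2 0.97 ± 0.56, adjusted p = 0.676, edgeR). Abcb1b read 79.7, 29.1 and 32.6 CPM in TP1 controls and 39.3, 47.6 and 25.9 CPM in TP1 treated tumors (log2 -0.29 ± 0.40, adjusted p = 0.999, edgeR). The highest tumor of each gene was TP1 control replicate 1, which had the lowest epithelial marker sum, and without it the TP1 log2 differences were 0.52 ± 0.66 for Abcb1a and 0.28 ± 0.38 for Abcb1b, so that the sign for Abcb1b turned. At TP2 Abcb1b held 26.2, 23.4, 26.2 and 20.0 CPM in controls and 44.6, 19.5 and 46.4 CPM in treated tumors (log2 0.61 ± 0.38, adjusted p = 0.690, edgeR). In both genes TP2 treated replicates 1 and 3 lay above all TP2 controls, while replicate 2 lay within their range for Abcb1a and just below it for Abcb1b.

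The copper transporters varied less among HGS2 replicates. At TP1 Slc31a1 read 55.7, 48.3 and 47.3 CPM in controls and 51.0, 45.6 and 36.9 CPM in treated tumors, which overlapped (log2 -0.16, adjusted p = 0.999, edgeR). It read 43.6, 43.1, 47.8 and 44.3 CPM in TP2 controls and 47.4, 40.7 and 50.1 CPM in TP2 treated tumors (log2 0.04 ± 0.12, adjusted p = 0.944, edgeR). Atp7a read 73.3, 49.8, 80.0 and 76.1 CPM in TP2 controls and 79.5, 81.3 and 84.6 CPM in TP2 treated tumors (log2 0.23 ± 0.16, adjusted p = 0.725, edgeR). The control with 49.8 CPM was replicate 2, the tumor with 114803 CPM of pancreas acinar markers. TP3 treated tumors held 46.1 to 50.0 CPM of Slc31a1 and 48.6 to 70.2 CPM of Atp7a, the latter below all TP2 treated tumors, with an adjusted p of 1 against TP2 controls for both genes (edgeR). Abcg2 read 21.6, 20.4, 18.3 and 19.1 CPM in TP2 controls and 18.1, 12.02 and 16.2 CPM in TP2 treated tumors, which did not overlap but did not pass (log2 -0.37 ± 0.16, adjusted p = 0.647, edgeR).

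Abcc1 and Abcc3 overlapped between HGS2 groups. At TP1 Abcc1 ranged from 129 to 154 CPM in controls and from 98.1 to 158 CPM in treated tumors, and Abcc3 from 47.2 to 67.5 CPM and from 56.6 to 61.8 CPM. At TP2 Abcc3 read 44.2 to 53.4 CPM in controls and 42.7 to 69.4 CPM in treated tumors (log2 0.11, adjusted p = 0.929, edgeR). The remaining 3 comparisons within HGS2 gave no call either, with a background of 0% each. From TP1 to TP2 treated tumors 152 genes had an unadjusted p below 0.05 and DESeq2 called 1, from TP2 to TP3 treated tumors 1690 and 144, and from TP1 to TP2 controls 569 and 8, with 0 genes called by edgeR and by limma-voom. Atp7a had an unadjusted p below 0.05 from TP2 to TP3 treated tumors. Abcb1a (log2 -1.27 ± 0.56) and Abcb1b (log2 -0.94 ± 0.38) had one between the controls, with an adjusted p of 1 for both in edgeR. Without TP1 control replicate 1 the values between the controls were -0.80 ± 0.61 and -0.37 ± 0.35.

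Whether the models differed in their response was tested directly, as the HGS2 difference between treated and control tumors minus that of 60577. At TP2 Slc31a1 differed by 0.77 ± 0.21 on the log2 scale (SE, adjusted p = 0.0262) and Atp7a by 0.64 ± 0.19 (adjusted p = 0.0359, edgeR), both being lower after treatment in 60577 and not called in HGS2. These were 2 of 7 transporters, against 10.3% of all genes, and the median over the 7 was 0.64 against -0.0539 for all genes. Neither passed without the tumors above 15% 7SL (Slc31a1 0.45, adjusted p = 0.158, and Atp7a 0.58, adjusted p = 0.153) or with the 7SL share as a covariate (0.57, adjusted p = 0.125, and 0.43, adjusted p = 0.167, edgeR). The Atp7a value without those tumors lay within the standard error of that with them. At TP1 none of the 7 passed, against 1.77% of all genes, although Abcb1b (-1.34 ± 0.50, adjusted p = 0.140) and Abcc1 (-0.99 ± 0.31, adjusted p = 0.0825, edgeR) had an unadjusted p below 0.05. Of the 7 transporters DESeq2 called Abcc1 alone in that comparison, where it called 998 of 16241 genes against 288 by edgeR. Without HGS2 TP1 control replicate 1 the Abcb1b value was -0.72 ± 0.45 (adjusted p = 0.396, edgeR). The calls at TP1 in 60577 are therefore not shown to be absent from HGS2. Leaving out the HGS2 tumors rich in pancreas RNA changed no count of calls in HGS2 or between the responses.

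In untreated tumors the models differed most in Slc31a1, as the plot of levels by sample also shows. The 6 controls of 60577 ran from 27.3 to 33.4 CPM with a median of 30.1, and the 7 controls of HGS2 from 43.1 to 55.7 CPM with a median of 47.3. The ranges did not overlap, and HGS2 was higher by 0.66 ± 0.11 on the log2 scale (SE, adjusted p = 2.57e-05, edgeR). Abcg2 was lower in HGS2 (log2 -0.35 ± 0.10, adjusted p = 0.00539), with a median of 19.1 CPM (16.6 to 21.6) against 24.5 CPM (20.6 to 27.3). Atp7a was lower too (log2 -0.25 ± 0.10, adjusted p = 0.0365, edgeR), with a median of 73.3 CPM (49.8 to 81.0) against 87.7 CPM (75.9 to 93.3). Without the tumors rich in pancreas RNA the Atp7a value was -0.19 (adjusted p = 0.0559), and the call was also lost without HGS2 TP1 control replicate 2 or 3, HGS2 TP2 control replicate 2, 60577 TP1 control replicate 2 or 3, or 60577 TP2 control replicate 2 or 3, with adjusted p of 0.0580 to 0.0837. Slc31a1 and Abcg2 passed without those tumors. In all, 3 of 7 transporters passed against 51.5% of all genes, so that the count itself does not single them out. With the length and GC offset Abcg2 was no longer called (log2 -0.16, adjusted p = 0.280, and -0.15, adjusted p = 0.344 with the replicate block). Markers moved between these controls as well: in HGS2 7 of 7 fibroblast, 7 of 7 pancreas acinar and 4 of 4 plasma cell markers were higher. Of 6 macrophage markers 5 were higher and 1 lower, and 5 of 7 epithelial markers were lower. Among the other lists, 3 of 8 endothelial, 3 of 5 tested T and NK cell and 2 of 4 B cell markers were higher. Of 7 adipocyte markers 2 were higher and 1 lower. Lower too were 1 of 5 mesothelial and 1 of 2 tested hepatocyte markers. No neutrophil or dividing cell marker passed. Fibroblast markers summed to 27452 to 134697 CPM in HGS2 controls against 5751 to 10002 CPM in 60577 controls, and macrophage markers to 788 to 1345 CPM against 269 to 582 CPM, with no marker at 0 throughout. Their part in the transporter differences was not tested. Abcb1b (log2 0.47 ± 0.24, adjusted p = 0.103) and Abcb1a (log2 -0.51 ± 0.34, adjusted p = 0.211, edgeR) did not pass.

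The cell lines differed in the same direction in Slc31a1. It read 47.0 and 40.4 CPM in the 60577 line and 95.1 and 93.2 CPM in the HGS2 line (log2 1.11 ± 0.18, SE, adjusted p = 0.0167, edgeR). Abcc3 read 27.2 and 34.6 CPM in 60577 and 5.12 and 6.83 CPM in HGS2, a log2 difference of -2.37 ± 0.27 (adjusted p = 0.00710, edgeR). The control tumors showed no such gap in Abcc3 (log2 0.22, adjusted p = 0.291). Abcb1a read 25.5 and 36.1 CPM against 16.05 and 14.6 CPM (log2 -1.01 ± 0.25, adjusted p = 0.0454, edgeR). This call was kept in 5 of 12 alternatives, over which the adjusted p ran from 0.00497 to 0.351. These were 3 of the 8 transporters tested in the lines, against 18.9% of 13742 genes. Abcc1, at 124 and 119 CPM in 60577 and 195 and 193 CPM in HGS2, missed the threshold (log2 0.68 ± 0.18, adjusted p = 0.0554, edgeR). Atp7b, which could be tested only in the lines, read 0.713 and 0.225 CPM against 1.48 and 1.81 CPM (log2 1.82 ± 0.69, adjusted p = 0.127, edgeR). With 2 libraries per line, the count of calls ranged from 0 to 5 when a library was left out, with 0 calls without 60577 replicate 2, 1 without 60577 replicate 1 and 5 without HGS2 replicate 1. In the HGS2 line 5 of 7 fibroblast markers were higher and 6 of 7 tested epithelial markers lower than in the 60577 line.

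Genes with related functions were counted from fixed lists, and their counts are to be read against the 33.3%, 58.4% and 51.4% of all genes that passed at TP1, TP2 and TP3 in 60577. No list is singled out by its count. Among 6 other ABC exporters, 4 were tested in tumors, and 2 were higher in treated 60577 tumors at TP1 and 2 at TP2. Abcc4, an exporter of cyclic nucleotides and prostaglandins, was higher by 1.10 ± 0.15 at TP2 (log2, SE, adjusted p = 4.13e-05), and Abcc5, its relative, by 1.11 ± 0.21 (adjusted p = 0.000501, edgeR). Abcc4 was also higher at TP1 (log2 1.10 ± 0.16, adjusted p = 0.000142), and there its response differed between the models by -1.28 ± 0.25 (adjusted p = 0.00967, edgeR). Of 12 organic cation and anion uptake carriers, 7 were tested and 4 were higher at each of TP1, TP2 and TP3, with none lower. Slc22a3, the organic cation transporter OCT3, was higher by 4.50 ± 1.07 on the log2 scale at TP2 (adjusted p = 0.00243, edgeR). The carnitine transporter gene Slc22a5 was higher by 0.53 ± 0.13 (adjusted p = 0.00265) and Slco3a1 by 0.66 ± 0.18 (adjusted p = 0.00627, edgeR).

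The 11 other copper-handling genes were all tested, and they split in both directions. In 60577, 4 were higher and 0 lower at TP1, 3 higher and 4 lower at TP2, and 3 and 3 at TP3. At TP2 the mitochondrial copper chaperones Sco2 (log2 -0.97 ± 0.14, adjusted p = 4.55e-05) and Sco1 (log2 -0.51 ± 0.13, adjusted p = 0.00434, edgeR) were lower, along with Slc31a1 and Atp7a. Steap3, a metalloreductase, was higher by 0.84 ± 0.22 (adjusted p = 0.00442, edgeR). Of the 5 subunits of the volume-regulated anion channel, a route of platinum entry formed by LRRC8 proteins, 1 was lower at TP1, 3 at TP2 and 2 at TP3, and none was higher. Lrrc8e was lower by a log2 value of -1.78 ± 0.22 at TP2 (adjusted p = 2.03e-05), Lrrc8b by -0.56 ± 0.13 (adjusted p = 0.00169) and Lrrc8a, the obligatory subunit, by -0.46 ± 0.17 (adjusted p = 0.0300, edgeR). The Lrrc8e response at TP2 differed between the models by 1.62 ± 0.47 (adjusted p = 0.0305, edgeR). Of 5 regulators of transporter genes, 3 were tested, and Ahr (log2 -0.58 ± 0.13, adjusted p = 0.00133) and Nfe2l2, which encodes NRF2 (log2 -0.38 ± 0.12, adjusted p = 0.0164, edgeR), were lower at TP2. In the HGS2 treatment comparisons 0 genes of these lists passed.

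Between HGS2 and 60577 controls, 2 of the 4 other exporters were higher and 1 was lower, 3 of 11 copper-handling genes were higher and 2 lower, and 2 of 5 anion channel subunits were higher and 1 lower. Of 7 uptake carriers 2 were higher, and of 3 regulators 1 was higher. Of all genes, 51.5% passed between these controls, so that no list is singled out. In the cell lines 1 of 3 other exporters and 1 of 5 channel subunits were lower in HGS2. None of 11 copper-handling genes, 4 uptake carriers or 3 regulators passed there, against 18.9% of all genes.

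The genes whose levels ran most like each transporter were listed for each model. Likeness was taken as Pearson's r of log2 CPM over the 17 tumors of 60577 or the 16 of HGS2, which share treatment, cell makeup and depth. In 60577 Slc31a1 ran most like Ebp (r = 0.97), Copb2 (0.97) and Ssr1 (0.97), and Atp7a most like Fkbp10 (0.95), Il1rap (0.94) and Efemp2 (0.94). Abcc1 ran most like the leukocyte receptor genes Lilr4b (0.95) and Lilrb4a (0.94), Abcc3 like Cxcl14 (0.96), Abcg2 like Atl3 (0.96), Abcb1a like Pygl (0.91) and Abcb1b like Mgat4b (0.86). In HGS2 Atp7a ran most like the myeloid genes Alox5ap (0.91), Ctss (0.90) and C3ar1 (0.90), and Abcb1b like Ccl2 (0.92) and Tnfaip6 (0.91). Abcb1a ran like Dnajb5 (0.90) and the endothelial gene Vwf (0.89), Abcc3 like Rab7b (0.85), Abcg2 like Cxxc4 (0.94) and Slc31a1 like Foxk2 (0.88). No gene was among the leading 3 of a transporter in both models. With 13926 protein-coding genes kept and 3 listed, such a lack of overlap was likely in advance. It shows no difference between the models.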

How the data were processed

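Bulk RNA of 34 omental tumors and 4 cell line libraries was sequenced after depletion of ribosomal RNA, from paired ends and with strand kept. Per the labels and the study's methods, reads were trimmed with Trim Galore 0.6.5 and mapped with STAR 2.7.0f to GRCm38, and genes were quantified with RSEM. The authors deposited expected counts per gene, estimated counts with decimals that were neither filtered nor normalized, in one table for tumors and one for cell lines. Here they were rounded. A gene was kept at 1 CPM or more, before TMM scaling, in no fewer than 25% of libraries (16241 in 33 tumors, 13742 in 4 cell line libraries). The genes kept were TMM-scaled and passed to edgeR 4.0.16 in R 4.3.3 (quasi-likelihood, two-sided, Benjamini-Hochberg over all genes kept, threshold 0.05). The 5 groups of a model were fitted together, models were compared in a fit of both, and the lines were fitted apart. The SE of a log2 fold change is its size divided by the square root of F. Symbols, positions and transcript lengths came from GENCODE M21, which held 55227 of the genes, and upstream sequences from RefSeq GRCm38.p6, with an entry for 7 of the 9 transporters. CPM were computed in R with the TMM factors of edgeR. Summaries of CPM and the exact permutation test used pandas 2.3.3, scipy 1.17.1 and numpy 2.4.6 under Python 3.11.15, and figures matplotlib 3.10.9. Depth is given with the results and the tests were checked on simulated counts.

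The transporters, related lists and markers were chosen with earlier results of these data known. All 9 transporters were named whatever their values, from each related list up to 3 genes with the smallest adjusted p at TP2 in 60577 among those that passed, and for each tested transporter the coding genes with the highest r in each model, at most 3. The genes most like Abcc1 in HGS2 are not reported here. Replicates were taken as labelled, and where nothing says that they came from separate cultures the p-values measure only the spread between these samples. No library was a copy: over 44 pairs of replicates chi-square per degree of freedom was at least 9.38. Replicate numbers are shared between groups. Deviations of same-numbered tumors correlated at 0.114 to 0.144 at TP2 in 60577 and 0.138 to 0.296 at TP2 in HGS2. Differently numbered TP2 tumors reached 0.0628 and 0.111, so these values were taken as a sign of pairing. At TP1 the same-numbered values were -0.0516 to 0.131 and -0.279 to 0.0876, while differently numbered HGS2 tumors reached 0.351. Correlations this small do not settle whether tumors were paired. The sign of pairing comes from this check alone, and the main fits did not use it.

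The alternatives were DESeq2 1.42.0 (size factors, and its Wald test), limma-voom (limma 3.58.1), no filter, a length and GC offset (splines with 5 degrees of freedom), the replicate block with and without that offset, both models fitted together, the added HGS2 tumor and each library left out. Chosen after seeing the data were the log2 7SL share as a covariate, the fit without the 3 tumors of 60577 above 15% 7SL, the fit without the 3 HGS2 tumors above 50000 CPM of pancreas markers, and a crossed replicate block in the lines.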

Additional observations from a re-analysis of the deposited data

Results flagged for a closer look

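In 36 groups of 4 libraries, 1 per transporter and group, the lowest or highest library was set against the rest by its gap, which chance passes in about 1 of 20 groups. The libraries named here are about as many as chance passes among 36 groups. Slc31a1 in HGS2 TP3 treated replicate 1, at 19.3 CPM, lay far below the other 3 tumors of its group, at 46.1 to 50.0 CPM. This tumor is the one missing from the study's tables and entered none of the comparisons. Atp7a in 60577 TP2 treated replicate 2, at 70.8 CPM, lay above the other 3 tumors, at 59.2 to 61.1 CPM, and was the highest of its group while still below all TP2 controls.

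The treatment responses at TP2 differed between HGS2 and 60577 by 0.77 on the log2 scale for Slc31a1 and by 0.64 for Atp7a in the edgeR contrast. Without the 60577 tumors above 15% 7SL the values were 0.45 and 0.58, so that the Atp7a value stayed within its standard error of 0.19 while neither call was kept.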

How the results depend on the processing

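In 60577, the transporters passing at TP1 numbered 3 when both models were fitted together, where Abcb1a and Abcc3 were lost, and 3 to 5 with a tumor left out, the 3 without TP1 treated replicate 3, where Abcc1 and Abcg2 were lost. At TP2 the 7SL covariate left 1, Abcc3. At TP3 the length and GC offset gave 4, and 4 with the replicate block as well. From TP1 to TP2 treated tumors the count was 5 with the offset, 6 with block and offset, 0 without the tumors above 15% 7SL, and 1 to 5 with a tumor left out (1 without TP1 treated replicate 1, 5 without TP1 treated replicate 2). From TP2 to TP3 treated tumors it was 0 with the offset, with block and offset, with the covariate and without those tumors, and 0 to 2 with a tumor left out (0 without TP2 treated replicate 3 or 4 or TP3 treated replicate 1, 2 or 4, and 2 without TP2 treated replicate 1). For the model difference at TP1 it was 1 with DESeq2, with the offset and with block and offset, and 0 to 1 with a tumor left out (1 without HGS2 or 60577 TP1 treated replicate 2). At TP2 it was 0 without a filter, with block and offset, with the covariate and without the tumors above 15% 7SL, 1 with the offset and with the added HGS2 tumor, and 0 to 2 with a tumor left out. In the cell lines it was 5 without a filter and 0 to 5 with a library left out. The replicate block alone gave 5, 4 and 2 calls at TP1, TP2 and TP3 in 60577 and 0 in HGS2, as without it, and 2 in the cell lines, where crossed numbers gave 3. The counts in this paragraph are given without the share of all genes passing under the same setting. They therefore do not show whether the transporters changed more or less often than other genes, and the causes were not tested.

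Of 409 alternative fits of 23 gene results, 336 kept direction and call, 73 lost the call and 0 reversed. The offset moved the median log2 fold change of all genes by up to 0.28, so its counts are relative to that shift. With 2 to 4 libraries per group, and HGS2 calling 0% of genes, differences of the size of the standard errors given could not be resolved. The Abcb1b share kept its direction in every alternative run.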
